A study of Schizosaccharomyces pombe with 6 samples.

Results

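Loss of Dicer in fission yeast (Schizosaccharomyces pombe) was examined here by comparing 1 small RNA library of strain spb309, labelled dcr delta, with 3 wild-type libraries, 1 of strain spb80 and 2 of strain spb75. These 4 libraries, of 6 in the series, came from cells grown in YES medium at 30 °C to an optical density of 0.5. RNA of 18 to 28 nt was purified from a gel before library preparation. The labels give the genotype of spb80 and spb75 as wild type and name no other allele for any strain. They do not say which part of dcr1 spb309 lacks, nor whether it shares its background with spb80 or with spb75. The labels do not say that libraries came from separate cultures, so every p-value measures the spread between these libraries, which may be technical.

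The libraries were compared over 1 list of 11033 peaks, regions where reads pile up, of which 8274 passed a filter on low signal and were tested. Read totals over the peaks were 11037742 for spb80, 15723318 for spb75 replicate 1, 5790804 for spb75 replicate 2 and 7106624 for the library labelled dcr delta. The median peak held 33, 47, 28 and 25 reads in the same order. Levels below are normalised reads, the reads on a peak divided by the scaling factor of the library. A log2 ratio is the fitted difference, dcr delta minus wild type, of log2(normalised signal + 1), where signal is reads per mean peak width. Differences were tested with limma, and p-values were adjusted by Benjamini and Hochberg across the 8274 peaks, with a threshold of 0.05. The single dcr delta library was assumed to vary like the wild-type libraries. An exact permutation test of a single peak in this layout could not go below a one-sided p of 0.25.

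Dicer, encoded by dcr1, cuts double-stranded RNA into small interfering RNA (siRNA). In fission yeast the long transcripts of the repeats that flank the centromeres are copied by an RNA-directed RNA polymerase and diced. The siRNA then guides an Argonaute complex that keeps histone H3 methylated on lysine 9 over the repeats. Repeats related to the centromeric ones also lie near the ends of chromosomes, inside the tlh helicase genes. Reads of this size can also be fragments of abundant RNA such as rRNA, tRNA or mRNA, which do not depend on Dicer.

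The sequences shown here belong to peaks described below, read 5′ to 3′ on the strand of the named gene from the RefSeq assembly ASM294v3. Of 30 groups of peaks with equal values, low ones left out, 28 had identical sequence. From this, reads with several matches appear to have been shared out among copies. A copy that lies within a wider peak need not hold an equal value. The first 2 sequences are repeat peaks of centromeres I and III, each with 10 exact copies in the genome. The next is the subtelomeric peak with the largest fall. The next 4 are single-copy peaks in tho3, snoR58, ade6 and gld1, and the last pair sets the eno102 peak beside the matching stretch of eno101. Capitals in that pair mark the 6 positions that differ.
SPNCRNA.3679 (chrI:3761618-3761773, minus strand, 156 bp): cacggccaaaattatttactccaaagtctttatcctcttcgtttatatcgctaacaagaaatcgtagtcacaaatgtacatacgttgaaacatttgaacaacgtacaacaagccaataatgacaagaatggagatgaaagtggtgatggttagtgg
SPNCRNA.7212 (chrIII:1111676-1111944, minus strand, 269 bp): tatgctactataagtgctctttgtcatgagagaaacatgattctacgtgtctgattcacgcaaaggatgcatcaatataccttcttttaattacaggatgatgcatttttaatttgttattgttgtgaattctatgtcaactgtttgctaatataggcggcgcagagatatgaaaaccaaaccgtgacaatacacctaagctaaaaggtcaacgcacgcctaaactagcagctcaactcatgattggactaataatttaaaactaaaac
SPNCRNA.4507 (chrI:5573573-5573690, plus strand, 118 bp): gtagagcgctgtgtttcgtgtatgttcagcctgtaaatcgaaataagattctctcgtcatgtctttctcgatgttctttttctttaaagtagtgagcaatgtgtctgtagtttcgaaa
tho3 (chrIII:738054-738081, minus strand, 28 bp): aaacatattttagcatatgctgtatcgg
snoR58 (chrI:5366230-5366281, minus strand, 52 bp): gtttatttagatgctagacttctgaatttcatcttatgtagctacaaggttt
ade6 (chrIII:1317308-1317340, plus strand, 33 bp): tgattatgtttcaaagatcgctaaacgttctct
gld1 (chrI:2175987-2176028, minus strand, 42 bp): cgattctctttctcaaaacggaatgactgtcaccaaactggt
eno102 (chrII:58992-59029, minus strand, 38 bp): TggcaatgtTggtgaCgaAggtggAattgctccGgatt
eno101 (chrII:2201851-2201888, plus strand, 38 bp): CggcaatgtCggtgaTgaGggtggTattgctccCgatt

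The targeted gene was read first, as a check of the label. Peaks on dcr1 still held reads in the library labelled dcr delta. Summed over the peaks that overlap dcr1, it held 246 reads, against 81 in spb80, 74 in spb75 replicate 1 and 58 in replicate 2. The normalised level was 270 in that library and 56.9 ± 11.7 (SD, n = 3) in wild type. On the log2 scale the difference was 2.25 (SE 0.38, limma adjusted p = 0.038). The call rested on both spb75 libraries, since without either of them the adjusted p was above 0.05 and reached 0.180. The peak at 1507202 to 1507310 of chromosome III, in dcr1 coding sequence, held 115 reads in the library labelled dcr delta and 60, 46 and 42 in wild type. The peak at 1505607 to 1505661, where dcr1 overlaps the convergent septin gene spn6, held 69 reads against 11, 16 and 5. The library labelled dcr delta was the highest of the 4 on all 5 dcr1 peaks. No strand is given for a peak, so dcr1 and spn6 reads cannot be told apart there. Of the 5 dcr1 peaks 4, with 131 of the 246 reads, lie in that overlap. The peak outside it had a log2 ratio of 1.66 (limma adjusted p = 0.585) and did not pass. The reads do not show which part of dcr1 is missing, and dcr delta is used below as the name on the label of that library.

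The library labelled dcr delta differed from wild type in how its reads were spread over annotated classes. Pericentromeric peaks, including 2 wide peaks that contain tRNA genes at the edges of centromere III, took 23.0% of the reads over peaks in spb80, 24.6% in spb75 replicate 1 and 16.5% in replicate 2. They took 0.364% in the library labelled dcr delta (Wilson 95% interval 0.360 to 0.369%, counting error only), or 0.119% without those 2 peaks. Subtelomeric peaks, within 50 kb of an end of chromosome I or II, took 0.151%, 0.223% and 0.197% in wild type and 0.0092% in dcr delta. Dcr delta lay below all 3 wild-type libraries in both classes. rRNA genes took 32.3%, 23.5% and 28.0% of wild-type reads and 58.0% of dcr delta reads. Small nuclear RNA genes took 0.116%, 0.118% and 0.194% against 0.395%, and small nucleolar RNA genes 0.178%, 0.127% and 0.149% against 0.393%. In these 3 classes dcr delta lay above all wild-type libraries. tRNA genes took 24.6% in dcr delta, below the 28.5% to 37.3% of wild type, and coding sequence took 11.6%, inside the wild-type range of 10.4% to 18.2%. Shares sum to 100%, so a class that shrinks raises the shares of the others. In bulk RNA, fewer cells that carry an RNA and less of it per cell cannot be told apart.

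**Figure D1:**
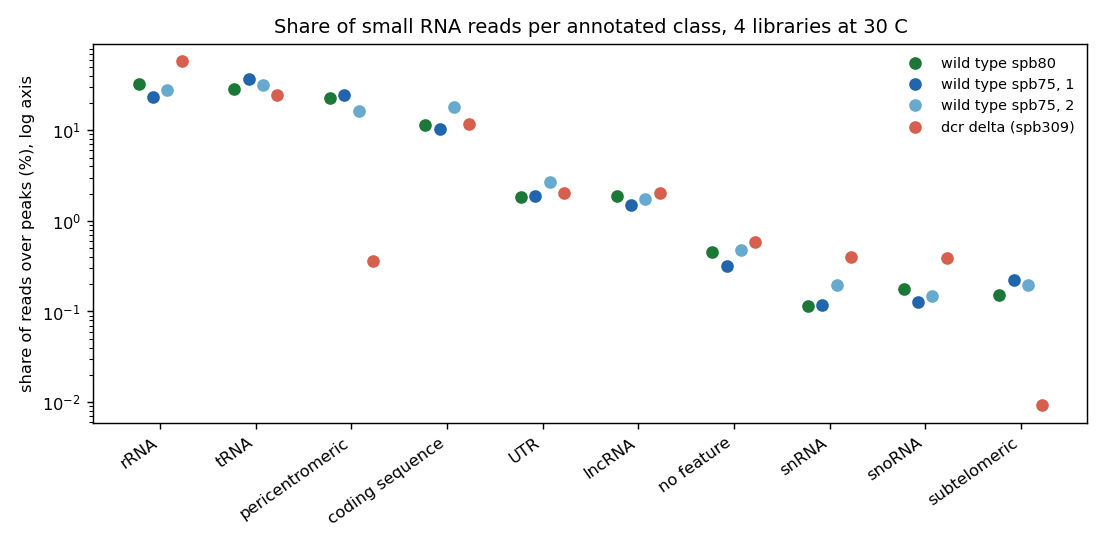
Share of reads over peaks (percent, log axis) in each annotated class, 1 point per library, for the 3 wild-type libraries and the dcr delta library at 30 °C. The dcr delta point lies far below the others for pericentromeric and subtelomeric peaks and above them for rRNA, snRNA and snoRNA.

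Across all 8274 tested peaks, 72 fell (0.87%) and 1 rose (0.0121%), while 4.1% were lower and 2.27% higher at an unadjusted p under 0.05. Of the 72, 40 were pericentromeric, 31 subtelomeric and 1 lay in coding sequence. The single rise was also in coding sequence. Without spb80 there were 110 falls and 16 rises, and without spb75 replicate 2 there were 7 rises. The median log2 ratio of all tested peaks was -0.08. The peaks that fell were wide, with a median of 269 bp against 55.0 bp for the other tested peaks, and 54 of the 72 occur at 2 or more places in the genome, against 1.63% of the others. Their median GC content was 36.1%, against 39.0%.

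**Figure D2:**
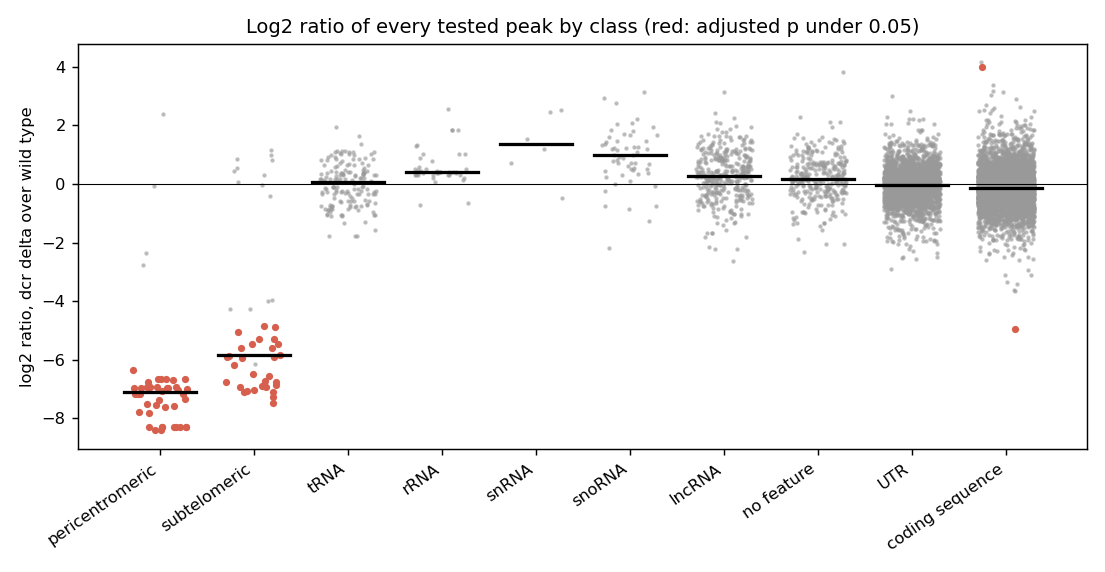
Log2 ratio of dcr delta over the 3 wild-type libraries for every tested peak, by class, with the class median as a bar and peaks past the adjusted p of 0.05 in red. Pericentromeric peaks centre on -7.11 and subtelomeric peaks on -5.84, while the other classes centre between -0.15 and 1.36.

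At the centromeres the fall ran through the repeats on both sides of all 3 chromosomes. It passed the test for 8 of 8 tested pericentromeric peaks of centromere I, 8 of 9 of centromere II and 24 of 27 of centromere III. The median log2 ratios were -7.44, -6.94 and -7.00. The 40 peaks that fell hold 27 distinct read profiles, because repeat copies share values, and their log2 ratios ran from -8.40 to -6.35.

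The widest stretch at SPNCRNA.3679 on centromere I (3761774 to 3764218), a long non-coding RNA of the repeats, held 103626 reads in spb80, 248025 and 59211 in the spb75 replicates, and 340 in dcr delta. The normalised level was 265-fold lower in dcr delta than the wild-type mean, with a log2 ratio of -7.81 (SE 0.59, limma adjusted p = 1.4e-04). The peak directly beside it, whose sequence is shown above, held 4601, 6654 and 2851 reads against 30.1. The same values stood at 3 further peaks, all on centromere III. In each, dcr delta lay far below every wild-type library.

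The inverted boundary repeats IRC1-L and IRC1-R of centromere I, which mark the edge of the heterochromatin, showed the largest fall of all tested peaks. IRC1-L held 38250 reads in spb80, 31922 and 5603 in the spb75 replicates, and 28.3 in dcr delta. The log2 ratio was -8.40 (SE 0.83, limma adjusted p = 4.6e-04). Wild-type libraries differed more here than over the inner repeats, with spb75 replicate 2 the lowest. With voom weights in the fit the adjusted p of IRC1-L was 0.099. The 269 bp peak of SPNCRNA.7212, one of 4 peaks with equal values on centromere III, held 6620, 8819 and 1699 reads against 7.18, with a log2 ratio of -8.31 (SE 0.69). The same replicate of spb75 was the low one.

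Few pericentromeric peaks did not fall. The 2 wide peaks at the outer edges of centromere III (1069488 to 1071259 and 1139504 to 1142285) each contain tRNA genes. The left one held 160121 reads in spb80, 98981 in spb75 replicate 1, 4485 in replicate 2 and 4411 in dcr delta. The right one held 400485, 192797, 9880 and 13009. Spb75 replicate 2 was at the dcr delta level at both, so the wild-type libraries disagreed and the peaks did not pass the test (log2 ratios -2.77 and -2.35, SE 1.48 and 1.51). Without that library the ratios were -4.21 and -3.80 and both passed, with adjusted p of 0.0064 and 0.024. These 2 peaks held 22.1% of pericentromeric reads in spb80, 7.55% in spb75 replicate 1, 1.5% in replicate 2 and 67.3% in dcr delta. Without them the pericentromeric share was 17.9%, 22.7% and 16.3% in wild type and 0.119% in dcr delta. A narrow peak among the tRNA genes on the left of centromere II (1598617 to 1598693) held 54.0, 44.0 and 14.5 reads in wild type and 128 reads in the dcr delta library, and did not pass the test (log2 ratio 2.38, adjusted p = 0.404). The 41 tRNA peaks inside the centromere windows had a median log2 ratio of 0.17, and none passed.

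**Figure D3:**
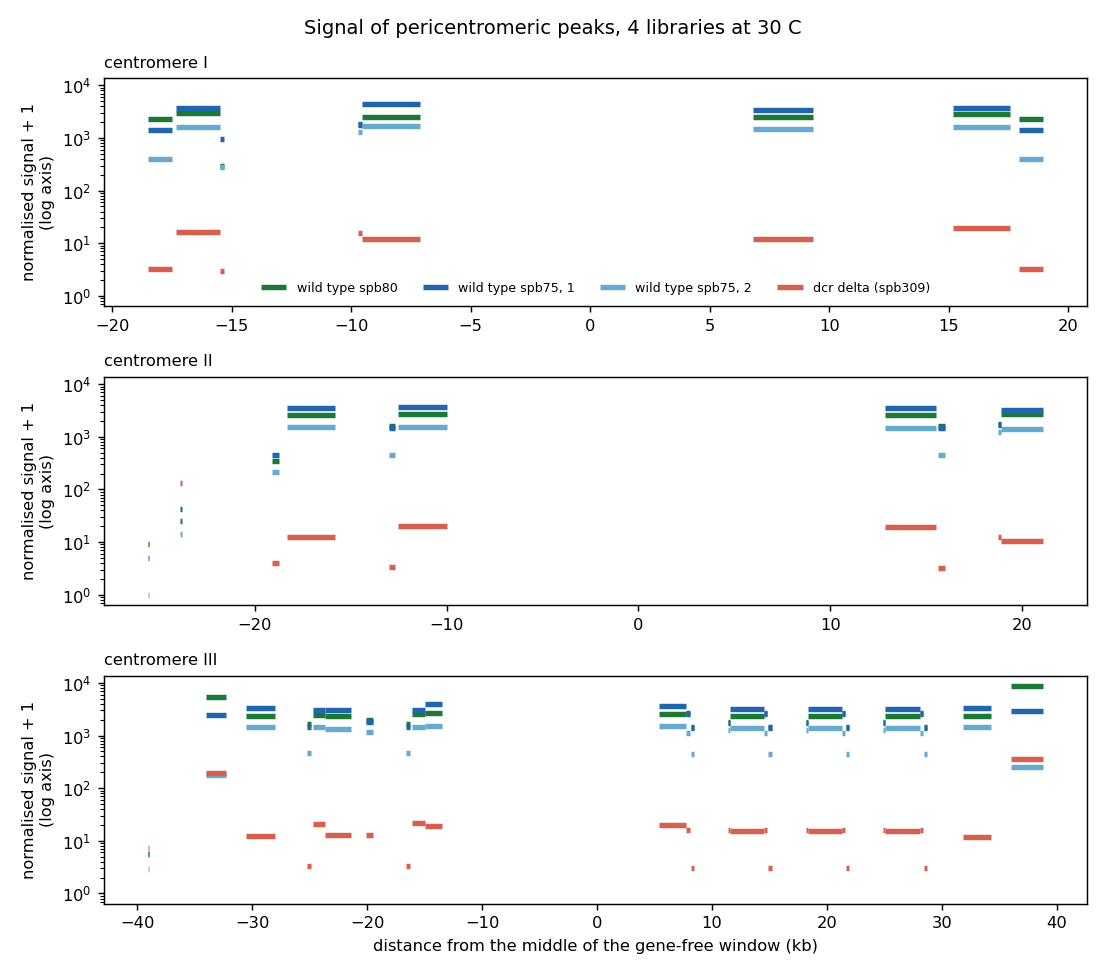
Normalised signal plus 1 (log axis) of the pericentromeric peaks of each centromere against the distance in kb from the middle of the gene-free window, 1 bar per peak and library, with bar length the width of the peak. Dcr delta bars lie below all wild-type bars over the repeats, while at both edges of centromere III the spb75 replicate 2 bars lie near those of dcr delta.

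Of the 47 subtelomeric peaks, 37 (78.7%) were below every wild-type library in dcr delta, against 31.9% of all tested peaks, and 31 passed the test. Those 37 lay within 22.0 kb of an end, a limit read from the values. The log2 ratios of those 31 ran from -7.48 to -4.85. Of the 31, 7 lay on the left end of chromosome I, 10 on its right end and 14 on the right end of chromosome II. In 24 of these 31 the dcr delta library held less than 1 read, and in 5 it held none. They have 24 distinct read profiles, since the ends share sequence.

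The tlh1 and tlh2 genes, which encode RecQ-type helicases, gave 4 of these falls. The tlh1 peak at 3120 to 3685 of chromosome I held 3009 reads in spb80, 6288 and 2214 in the spb75 replicates, and 9.16 in dcr delta. Its log2 ratio was -7.27 (SE 0.50). The peak of SPNCRNA.4507 and SPNCRNA.4508 shown above, on the right end of chromosome I, held 694, 1297 and 464 reads against 1.53. With wild-type reads pooled and 1.53 rounded to 2 reads, the ratio was 291-fold lower, with a Clopper-Pearson interval of 80.5 to 2407 for counting error only. A neighbouring peak at 5573354 to 5573410 held 129, 114 and 83.9 wild-type reads and 0 dcr delta reads, which from pooled wild-type reads set against 3 reads is at least 25.9-fold lower. On the left end of chromosome I, SPNCRNA.2012 at 17694 to 17850 held 862, 1401 and 528 reads against 5.03. At each of these loci the wild-type libraries were close to each other compared with their distance from dcr delta.

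The 6 peaks of these 37 that did not pass included 4 where spb75 replicate 2 was low. The peak at 7004 to 7131 of chromosome I held 322 reads in spb80, 1238 and 21.0 in the spb75 replicates, and 0.5 in dcr delta. Farther in, from 22.5 to 37.1 kb from an end, the 10 remaining subtelomeric peaks had log2 ratios of -0.42 to 1.17 and none passed. They were 7 peaks on the gene SPAC750.01 near the right end of chromosome I and 3 peaks with no annotated feature near the left end of chromosome II. Peaks on the right end of chromosome II share sequence with the right end of chromosome I, so distance, sequence and chromosome end cannot be told apart. At 5556450 to 5556527 in SPAC750.01 the wild-type libraries held 63.0, 138 and 90.5 reads and dcr delta 99.2. After normalisation these were 53.1, 83.6, 89.9 and 109, so dcr delta was the highest, with a log2 ratio of 0.55 (SE 0.50).

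**Figure D4:**
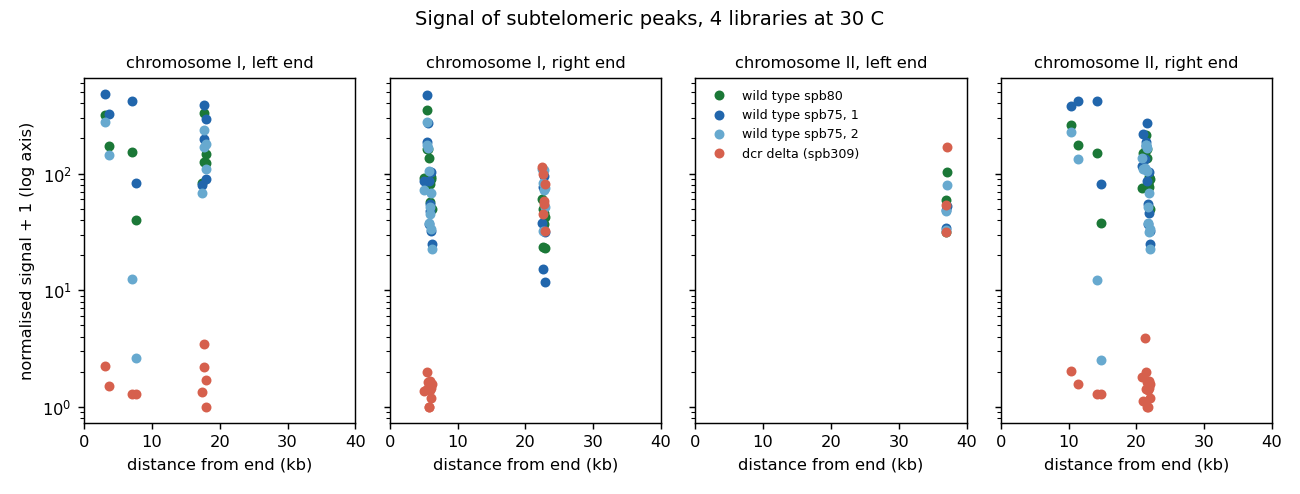
Normalised signal plus 1 (log axis) of subtelomeric peaks against the distance in kb from the chromosome end, 1 point per peak and library. Dcr delta points lie at the bottom up to 22.0 kb and close to the wild-type points from 22.5 kb inward.

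Outside these regions 2 of 8183 tested peaks passed. The rise was in eno102, one of 2 enolase genes, which encode an enzyme of glycolysis. Its peak, 59.0 kb from the left end of chromosome II, held 36 reads in spb80, 47 and 35 in the spb75 replicates, and 456 in dcr delta. The wild-type level was 31.2 ± 3.22 normalised reads (SD, n = 3), and the log2 ratio was 3.98 (SE 0.45, limma adjusted p = 0.0013). The sequence occurs once in the genome, and its longest run shared with the matching stretch of eno101 is 8 bases, shorter than any read. This bears on exact matches only, and the number of mismatches allowed in mapping is not known here. The 4 other peaks of the gene did not show such a difference in reads. They held 3 to 8 reads in dcr delta and 1 to 15 in wild type, and were too low to be tested. On eno101, the widest peak held 16201, 18300 and 15946 reads against 14121, before scaling, and did not pass. Summed over eno101, the normalised levels were 23075, 18235 and 26428 in wild type and 23275 in dcr delta, inside the wild-type range.

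The fall outside heterochromatin was a 28 bp peak in tho3, which encodes a subunit of the THO complex of mRNA export. Wild type held 8, 27 and 15 reads there and dcr delta 0, which from pooled wild-type reads set against 3 reads is at least 3.95-fold lower. Its adjusted p was 0.037 and rose to 0.191, 0.221 and 0.355 with a pseudocount of 10, voom weights or the added constant kept. Without either spb75 library the peak was too low to be tested.

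Small nuclear and nucleolar RNA act in splicing and in the modification of rRNA. Both had higher median ratios than the other classes, while no single peak passed against the 3 wild-type libraries together. Some of their peaks passed as higher against spb75 alone, and none against spb80 alone. Of 6 tested snRNA peaks, 5 were above every wild-type library, as were 33 of 55 tested snoRNA peaks, against 20.5% of all tested peaks. The class medians were 1.36 and 0.98, beside -0.08 for all tested peaks. The U2 gene snu2 held 4905, 4248 and 2657 reads against 15391 in dcr delta, and the U1 gene snu1 held 2214, 1901 and 1062 against 6977. The U6 gene snu6 did not follow, with 4601, 11360 and 6426 reads against 3657 before scaling and a log2 ratio of -0.47. The snoR58 peak held 48, 32 and 24 reads against 189, with a log2 ratio of 2.93 (SE 0.54, limma adjusted p = 0.05004). The spb80 library lay above both spb75 libraries at 43 of the 55 snoRNA peaks, against 34.8% of all tested peaks. The snoRNA median was 0.52 against spb80 and 1.30 against spb75. The part of the wild-type strain in this was not tested.

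Over rRNA genes the larger ratios lay on the 18S and 28S genes. The 8 rRNA peaks of at least 200 bp were above every wild-type library in dcr delta, with a median log2 ratio of 1.57, but none passed. All 8 occur at 2 or more places in the genome and hold 6 distinct read profiles, so they are not separate observations. An 18S peak (SPRRNA.43) held 191220 reads in spb80, 87517 and 80716 in the spb75 replicates, and 287980 in dcr delta. The 37 narrower rRNA peaks had a median of 0.38. Of them 3, or 8.11%, were above every wild-type library, beside 20.5% of all tested peaks. The median over all 45 rRNA peaks was 0.41 and reversed to -0.10 without spb75 replicate 2. tRNA peaks had a median of 0.07 and none of 157 passed.

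Reads were also summed per gene. Of 4428 tested genes, 70 fell (1.58%) and 12 rose (0.271%). The falls were 68 lncRNA genes, tlh1 and tlh2, with 43 distinct sets of reads, since overlapping genes and repeat copies share them. Without spb80 there were 47 rises, without spb75 replicate 1 there were 6, and without replicate 2 there were 3. The 12 rises lie at fewer loci, because overlapping genes share reads. They were eno102 with the overlapping SPNCRNA.1302, dcr1 with spn6, snu1 with SPNCRNA.5934, alg3 with the overlapping snoR02, snu2, snoR58, ecl1 and SPNCRNA.1374. The lncRNA SPNCRNA.1374 lies opposite cta3, which encodes a calcium-transporting ATPase. SPNCRNA.1374 held 6, 14 and 4 reads against 86, with a log2 ratio of 3.85 (SE 0.68, limma adjusted p = 0.044). The cta3 sum, 8, 22 and 7 reads against 91, had an adjusted p of 0.060. Strand is not given, so these reads cannot be assigned to either gene. The gene ecl1, known as an extender of chronological lifespan, held 23, 54 and 25 reads against 162, with a log2 ratio of 2.78 (SE 0.47, limma adjusted p = 0.035). Among the 12, eno102 and SPNCRNA.1302 passed under all 7 alternatives. They hold the same 475 dcr delta reads, most of them on the single eno102 peak described above, so they are 1 result. The other 10 lost the call without spb75 replicate 2, with adjusted p up to 0.242, and 7 of them also without replicate 1.

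Outside heterochromatin, the calls differed with the wild-type strain used under the main scaling. With total-read scaling the numbers of peaks called against the 2 strains lay close to each other. The comparisons rest on 1 spb80 and 2 spb75 libraries, so a difference in counts is not by itself a strain difference. Against spb80 alone, 74 peaks were lower (0.894%) and 3 higher (0.0363%). Against spb75 alone, 113 were lower (1.37%) and 18 higher (0.218%). These comparisons share the dcr delta library. The comparison with spb80 is 1 library against 1, and its spread comes from the 2 spb75 libraries alone, and both arms were assumed to vary like them. The 3 rises against spb80 were on eno102, ecl1 and zym1, a metallothionein gene. Pericentromeric peaks passed as lower at 40 sites in each comparison, with medians of -7.36 against spb80 and -7.08 against spb75. Subtelomeric peaks passed at 33 and 35.

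Outside both regions, 38 peaks were lower than in spb75, with log2 ratios of -5.34 to -2.38 and a median of -2.90. Their ratios to spb80 ran from -4.18 to 1.31 with a median of -0.94. Of the 38, 36 lay on coding genes, as did 7240 of the 8183 tested peaks outside both regions, so most peaks there do. At all 38, spb80 was below both spb75 libraries, but the peaks were chosen on high spb75 values, so nothing is read from that count. The clearest was in ade6, a gene of purine synthesis, where the peak shown above held 2084 and 386 reads in the spb75 replicates, 17 in spb80 and 16 in dcr delta. Both spb75 libraries lay far above the others. The gld1 peak, in a glycerol dehydrogenase gene, held 640 and 320 reads in spb75, 25 in spb80 and 21 in dcr delta. The test of spb80 against spb75 itself called 8 peaks lower in spb80 (0.0967%) and 0 (0%) higher by limma, with 547 of 8274 (6.61%) at an unadjusted p under 0.05. The 8 were 2 in ade6, 3 in gld1 and 1 each in inv1 (invertase), lsd90 and cnx1 (calnexin). The log2 difference was -5.56 (SE 0.67) for the ade6 peak and -4.02 (SE 0.54) for the gld1 peak, with adjusted p of 0.0073 and 0.012. The labels name no allele of ade6 in any strain.

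**Figure D5:**
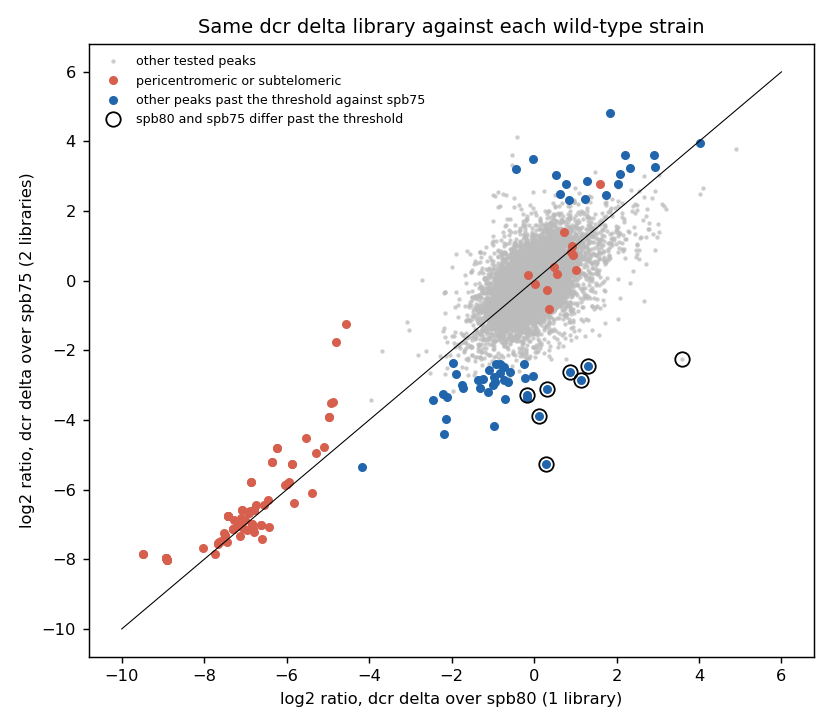
Log2 ratio of dcr delta over spb75 (2 libraries) against the log2 ratio over spb80 (1 library) for every tested peak, with the line of equal ratios. Pericentromeric and subtelomeric falls lie along the line, while the 38 other falls against spb75 lie below it and the circled peaks are those where spb80 and spb75 differ past the threshold.

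Peaks on cta3, gpd3, hsp90 and hsp104 did not pass. The only tested cta3 peak held 1, 9 and 1 reads against 38, a log2 ratio of 4.15. On gpd3, a glyceraldehyde-3-phosphate dehydrogenase gene, dcr delta was above every wild-type library at 10 of 13 tested peaks, with log2 ratios of 0.18 to 2.89. The 5 tested peaks of hsp90, a chaperone gene, had ratios of 0.61 to 0.90 and were all above every wild-type library. On hsp104, a disaggregase gene, 2 of 7 were, with ratios of 0.05 to 1.07. Of all tested peaks, 20.5% were above every wild-type library.

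A peak with no annotated feature between fil1 and gir2 on chromosome III (814777 to 814936) showed the opposite order. It held 4606 reads in spb80, 599 and 664 in spb75, and 12644 in dcr delta. Its log2 ratio was 4.82 against spb75 (adjusted p = 3.9e-04) and 1.84 against spb80, which did not pass. Spb80 lay between the spb75 libraries and dcr delta.

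A mating-type window was set by coordinates alone, on chromosome II from 2.11 to 2.14 Mb in this assembly. How much of it is silent heterochromatin was not determined. The window held 21 tested peaks, of which 0 passed by limma against the 3 wild-type libraries. At an unadjusted p under 0.05, 7 were lower and 1 higher, beside 4.1% and 2.27% of all tested peaks. All 7 of these lower peaks lay on rpt6, a proteasome ATPase gene inside those coordinates, picked after its values were seen. The lower peaks of the window and those of rpt6 are therefore not separate observations. Whether rpt6 lies in heterochromatin was not tested, so its lower peaks are not read as a loss from silent mating-type chromatin. Of the 11 tested rpt6 peaks, 10 were below every wild-type library, beside 31.9% of all tested peaks. Summed over the gene, rpt6 held 522, 712 and 583 reads against 217, with a log2 ratio of -1.01 (SE 0.30, limma adjusted p = 0.378).

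Coding genes as a class had a median close to that of all peaks. Over their 7240 tested peaks it was -0.11. Peaks where coding genes of both strands overlap had a median of -0.04 over 1195 tested peaks, and none passed. Peaks opposite an annotated lncRNA had a median of -0.15 over 2663, with 1 fall (tho3) and 1 rise (eno102). Peaks of coding genes with neither had a median of -0.11 over 3382, and none passed.

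Among gene lists, chaperone and heat shock genes were above every wild-type library at 48 of 97 tested peaks, or 49.5% beside 20.5% of all tested peaks, with a median of 0.49, and none passed. Of the 97 peaks, 15 (15.5%) were below every wild-type library, beside 31.9% of all tested peaks. The ssa1 gene, an Hsp70 chaperone, was above all wild-type libraries at 9 of 10 tested peaks, with log2 ratios of 0.73 to 2.49. Summed over ssa1, the log2 ratio was 1.51 (SE 0.64) and the gene did not pass. Ribosomal protein genes were below every wild-type library at 275 of 566 peaks, or 48.6% beside 31.9% of all tested peaks, with a median of -0.29, and none passed. RNAi genes had 1 rise among 7 tested genes, beside 0.271% of all tested genes, and a median of 0.35 over genes. The rise was dcr1 with the reads it shares with spn6, a call lost without either spb75 library. Of 6 tested heterochromatin genes none passed, with a median of 0.05. Glycolytic genes had 1 rise among 16, eno102, beside the same 0.271%, and a median of -0.03. That rise repeats the call of the single eno102 peak described above. Summed per gene, none passed among 15 of nuclear RNA decay, 21 of the Sty1 and oxidative stress response, 9 core histone genes, 6 of THO and mRNA export (tho3 passed only as a peak), 6 meiotic genes, 5 of phosphate and thiamine uptake, and 11 translation factors.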

How the data were processed

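Small RNA libraries were compared through 1 deposited list of MACS peaks with a signal per library. The submitters' processing notes name CASAVA 1.8, Bowtie 0.9.9.1 and MACS, without roles. A genome build is not given in the sources used here. From its values, the deposited signal equals reads on a peak times the mean peak width (71.0 bp) over that peak's width. A constant 8 had been added in the spb80 and dcr delta columns and was taken off, and 1 dcr delta read is worth 1.48 signal units. After this, 73.8 to 92.4% of values fell within 0.01 of a whole read. No count test was run, since the values are not counts.

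Peaks were placed on RefSeq ASM294v3, where 212 of 243 small structured RNA genes contained a peak and 38 to 60 did once positions were shifted by 200 to 2000 bp. A structured RNA gene had to cover at least 10% of a peak to name it, a rule set after seeing the data. Centromere windows are the gene-free gaps of 39.2, 51.5 and 78.2 kb.

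Signal was scaled by trimmed-mean (TMM) factors over 6 libraries, trimming 30% of log ratios and 5% of levels; the lowest 25% of peaks by mean were left out. Tests used limma 3.58.1 in R 4.3.3 with a trend on log2(normalised signal + 1), 2-sided, with 2 residual and 6.96 prior degrees of freedom; the comparisons with each strain had 1 and 13.1. The code was tested on simulated data. Shares carry Wilson and low ratios Clopper-Pearson intervals at 95%; bounds use 3 reads. Reads carry no molecular identifiers, so these cover counting error only.

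Named peaks are those on dcr1, the 12 largest rises and falls, the 3 highest, most raised and most lowered of each class, the 5 largest of each strain comparison, and list members that passed; others were chosen after their values were seen. Members and lists were chosen with earlier results of these data known. The 37 °C libraries entered only the scaling. Alternatives were other scalings, pseudocount, filters, weights, leaving out a library and other class rules.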

Additional observations from a re-analysis of the deposited data

How the results depend on the processing

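The 72 falls ranged from 52 (1 peak per read profile) to 83 under the other settings, except without spb80. Leaving out 1 wild-type library at a time gave 67 to 110 falls and 1 to 16 rises. The 1 rise became 8 with total-read scaling, 6 with a pseudocount of 10, 3 with voom weights, 4 with no trend and 2 with the added 8 kept. The gene sums gave 12 rises, 23 with total-read scaling and 3 to 47 without 1 library. Against spb80 the 3 rises became 1 with total-read scaling and 5 with no filter. Against spb75 the 18 rises became 7 with median-of-ratios factors, 3 with total-read scaling and 28 with a pseudocount of 10. Pericentromeric falls numbered 36 to 42 over all peaks, and 27 with 1 peak per read profile. Subtelomeric falls numbered 20 with voom weights and 24 to 35 otherwise. The rRNA median of 0.41 became -0.10 without spb75 replicate 2 and at most 0.80 without another library. The falls against spb75 were fewer with median-of-ratios factors, and with total-read scaling came near the number against spb80. The cause of these moves was not tested.

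Outside tRNA and rRNA genes, pericentromeric peaks took 54.1% of wild-type reads and 2.09% of dcr delta reads, subtelomeric peaks 0.480% and 0.0527%, and snRNA and snoRNA 0.742% and 4.51%. With an overlap of at least 50% of the peak, the dcr delta share was 0.642% for pericentromeric and 0.753% for snRNA and snoRNA peaks. Where any overlap named the class, a choice made after seeing the data, the pericentromeric dcr delta share was 0.119%. No paired analysis was possible because the dcr delta library and spb80 have 1 library each. At low depth, the tho3 call rests on 8 to 27 wild-type reads.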

Other observations

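The tRNA reads were spread over isotypes differently among libraries. Glycine tRNA took 35.2% of tRNA reads in spb80, 25.5% and 13.1% in spb75 replicates 1 and 2, and 23.1% in dcr delta, so the wild-type libraries alone spanned the dcr delta value. Histidine tRNA took 7.58%, 7.59% and 14.1% in wild type and 3.87% in dcr delta. Lysine tRNA took 2.11%, 1.62% and 2.78% against 5.37%, and isoleucine tRNA 1.64%, 0.945% and 1.40% against 3.09%. Phenylalanine tRNA took 0.535%, 0.419% and 0.531% against 1.41%. Over all 20 isotypes dcr delta was above every wild-type library for 12 and below every one for 2, with no test over isotypes. These are shares of the tRNA reads, so a smaller share of an abundant isotype raises the shares of the others. By normalised signal, dcr delta was above every wild-type library at 29.9% of the 157 tRNA peaks and below every one at 22.9%.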
